A study of Mus musculus with 24 samples.

Results

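The genes described are 29 of cholesterol synthesis, uptake, sensing and efflux, taken from a list by name. The list was chosen with earlier results of these data known. Each was read from 1 probe set, the one with the highest mean over all arrays among those naming 1 gene. Of the 29 genes, 24 had such a probe set among 17097 genes, and the expression of Pmvk, Acat2, Srebf1, Soat1 and Abca1 was not analysed here. Hmgcs1, an early enzyme of the pathway, had a mean level of 5.76 on the log2 scale, below the dim limit of 6.27. It ranged from 5.47 to 6.14 over the arrays and was not tested. The remaining 23 genes entered a test over 11844 genes: 15 of synthesis, 4 of sensing, Stard4 for sterol transport, Mylip for uptake, and Abcg1 and Ch25h for efflux and oxysterols.

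Cholesterol is made from acetyl-CoA through the mevalonate pathway and a long series of sterol intermediates, is taken up in lipoproteins, and leaves cells through transporters of the ABC family. When membranes hold little sterol, SCAP carries the SREBP2 protein to the Golgi, where it is cleaved into a factor that switches on the synthesis genes. When sterol is plentiful, the INSIG proteins hold SCAP back, and oxysterols activate LXR, which raises efflux genes. In peripheral nerve, myelinating Schwann cells make much of the cholesterol of myelin themselves.

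Expression was measured on 24 mouse arrays in cells named the neural fraction, isolated from tumour stroma. SCC25, a line from a human carcinoma of the mouth, had been grown as orthotopic xenografts in NSG (NOD-SCIDγ) mice, hosts without lymphocytes. The 4 hairpins were PLKO, which targets nothing, shEGR2_40.9 and shEGR2_38.9 against EGR2, a transcription factor of myelination, and shGAL against GAL, which encodes galanin. Mice received a control diet or one rich in palmitic acid, written PA-rich here. This gave 8 groups of 3 arrays, each with SCC25 tumours in NSG hosts. The hairpins belonged to human tumour cells, so mouse transcripts do not check the knockdown. Arrays of 1 group are described as technical replicates, so each p-value reflects the variation among arrays alone. Host age and the number of animals per group are not given in the sources used here.

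Markers of other cells were checked beside the label. Of the 5 Schwann and glial markers with a probe set, Sox10 (7.5), Ngfr (8.26) and Erbb3 (11.02) lay above the dim limit, while S100b and Foxd3 lay below it. Of 8 neuronal markers, 5 were dim. The summed linear level of 7 keratinocyte markers was 23042 to 34770 across arrays, with Krt14 at 13.18 and Krt5 at 12.91 on the log2 scale. Levels of different probe sets cannot be ranked against each other. One array, shEGR2_38.9 control replicate 3, stood apart from the other 23. Its 3′ minus 5′ Gapdh difference was 0.76 against -0.12 to 0.08, and its mean correlation with its own group was 0.978 against 0.986 to 0.996. Counts of synthesis genes called in comparisons with its group are given with and without it. So are single genes among the 23 tested where leaving it out changes a call of such a comparison. Counts without overlap, of lowest group means, of markers and of other pathway genes are given with it only. In such bulk RNA, fewer cells of a type and less RNA per cell cannot be told apart.

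The response to diet differed from that with PLKO in each of 3 comparisons, which share the PLKO arrays, for 4 genes: Fdps, Idi1, Cyp51 and Nsdhl. With the mean of probe sets, Cyp51 was called in 1 of the 3. Promoters are shown for Idi1, Cyp51 and Nsdhl. Each sequence runs from 250 bases before to 50 bases after the RefSeq start of the gene, 300 bases in all, on GRCm38.p6. Capitals mark CCAAT, the box bound by NF-Y, and GGGCGG, the GC box bound by Sp1, on either strand, so that ATTGG and CCGCCC are the same boxes read from the opposite strand. Both factors are known partners of SREBP at sterol-responsive promoters. The intervals are chr13:8885356-8885655 on the + strand for Idi1, chr5:4104648-4104947 on the - strand for Cyp51 and chrX:72918271-72918570 on the + strand for Nsdhl.
Idi1: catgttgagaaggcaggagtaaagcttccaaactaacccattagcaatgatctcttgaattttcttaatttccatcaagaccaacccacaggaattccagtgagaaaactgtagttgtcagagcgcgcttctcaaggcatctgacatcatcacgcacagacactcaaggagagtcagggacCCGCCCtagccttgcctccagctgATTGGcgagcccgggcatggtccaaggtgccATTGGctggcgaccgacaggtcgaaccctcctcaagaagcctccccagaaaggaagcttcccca
Cyp51: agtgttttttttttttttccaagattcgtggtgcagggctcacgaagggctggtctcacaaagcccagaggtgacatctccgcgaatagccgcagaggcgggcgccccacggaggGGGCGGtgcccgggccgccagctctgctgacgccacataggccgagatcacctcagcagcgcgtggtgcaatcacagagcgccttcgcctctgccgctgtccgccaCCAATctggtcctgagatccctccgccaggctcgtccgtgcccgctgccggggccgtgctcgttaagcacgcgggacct
Nsdhl: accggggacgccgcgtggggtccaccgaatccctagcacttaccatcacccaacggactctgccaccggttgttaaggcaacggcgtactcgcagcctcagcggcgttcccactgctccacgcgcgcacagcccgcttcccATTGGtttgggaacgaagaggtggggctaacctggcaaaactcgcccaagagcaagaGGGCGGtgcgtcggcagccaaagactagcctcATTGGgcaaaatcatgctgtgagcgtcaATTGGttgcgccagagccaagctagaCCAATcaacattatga
Idi1 held 2 CCAAT boxes, 45 and 14 bases before the start, Cyp51 held 1 at 29 bases before it, and Nsdhl held 4. Each had 1 GC box, at 69, 135 and 52 bases before the start, and no match overlapped another. RefSeq promoters were matched for 24 of the 29 genes, of which 15 are synthesis genes. These 15 differ from the 15 whose expression was tested: they include Pmvk, Acat2 and Hmgcs1 and do not include Fdps, Fdft1 and Sqle. Among the 15 with a promoter, CCAAT was in 14 and GGGCGG in 14, against 37.4% and 35.7% of 32851 promoters of the same length. These 32851 were not limited to genes on the arrays or above the dim limit, so the shares among expressed genes may differ. The core of a sterol regulatory element, TCACNNCAC on either strand, was in Dhcr7, Hmgcs1, Hsd17b7 and Msmo1, 4 of 15 against 3.77%. Variants of this element with other letters were not searched, so a promoter without a match may still hold one. The E-box CACGTG was in 3 of 15 against 7.15%. These are matches of letters and describe no binding.

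The sterol synthesis genes were lowest with shEGR2_38.9 on the control diet and highest with shGAL on the PA-rich diet. The mean log2 level of the 15 genes on the control diet was 8.78, 8.85 and 8.79 with PLKO, 8.53, 8.58 and 8.63 with shEGR2_40.9, 8.35, 8.31 and 8.32 with shEGR2_38.9, and 8.62, 8.58 and 8.64 with shGAL. The mean on the PA-rich diet was 8.53, 8.69 and 8.66 with PLKO, 8.88, 8.87 and 8.94 with shEGR2_40.9, 8.72, 8.71 and 8.80 with shEGR2_38.9, and 8.95, 8.99 and 9.0 with shGAL. With PLKO the 3 PA-rich arrays lay below the 3 control arrays, whereas with each of the other hairpins they lay above them. Taken gene by gene, arrays of the diets did not overlap and were lower on the PA-rich diet for 8 of 15 genes with PLKO, against 10.3% of all genes. They were higher without overlap for 11 of 15 with each of shEGR2_40.9, shEGR2_38.9 and shGAL, against 17.4%, 23.6% and 11% of all genes. The shares of all genes without overlap in the opposite direction were 10.6% with PLKO, higher, and 13.8%, 11% and 10.2%, lower. Of the 15 genes, 13 had their lowest group mean with shEGR2_38.9 on the control diet and 8 had their highest with shGAL on the PA-rich diet. Levels of cell type markers differed between groups as well. Schwann and glial markers on the control diet summed, on the linear scale, to 2518 to 2767 with PLKO and 2593 to 2673 with shEGR2_40.9. With shEGR2_38.9 the sum was 2075 to 2377, and with shGAL 2995 to 3313. On the PA-rich diet these sums were 2556 to 2715, 2430 to 2504, 2700 to 2847 and 2889 to 2984 in that order. Erbb3 read 11.02 on the log2 scale, against 8.26 for Ngfr and 7.5 for Sox10. On the linear scale these sums therefore chiefly follow the Erbb3 probe set and are no measure of Schwann cells as such. The summed linear level of 8 endothelial markers was 3043 to 4083 in PLKO control arrays (2516 to 3270 on the PA-rich diet), 7938 to 10078 with shEGR2_40.9 and 11678 to 14654 with shEGR2_38.9 on that diet, and 2666 to 3345 and 3971 to 4368 on the PA-rich diet. With shGAL the sum was 2406 to 3851 on the control diet and 2714 to 3909 on the PA-rich diet, which overlap, while the synthesis means of those arrays did not. Against PLKO on the control diet, 3 of 4 macrophage markers were higher with each EGR2 hairpin, as were 3 of 6 pericyte and smooth muscle markers with shEGR2_40.9 and 4 of 6 with shEGR2_38.9, and 1 of 2 adipocyte markers with each. Of all genes, 7.19% were higher with shEGR2_40.9 and 11.2% with shEGR2_38.9. The summed adipocyte level was 499 to 611 with PLKO, 1660 to 1991 with shEGR2_40.9 and 977 to 1696 with shEGR2_38.9. Of the 5 adipocyte markers in that sum, Adipoq, Lep and Pck1 lay below the dim limit. Only Fabp4 (9.15 on the log2 scale) and Retn (6.82) lay above it, so the sum chiefly follows the Fabp4 probe set. The macrophage sum was 763 to 840, 1087 to 1268 and 1561 to 1699 in the same order. With shEGR2_38.9, 3 of 7 keratinocyte, 1 of 3 Schwann and glial, 1 of 3 neuronal and 1 of 2 fibroblast markers were lower. The share of all genes was 19.1%. With shGAL on the control diet, levels were below PLKO for 2 of 4 macrophage, 2 of 6 pericyte, 1 of 8 endothelial and 1 of 7 keratinocyte markers. There 1 of 4 macrophage markers and 1 of 3 Schwann and glial markers were higher. Of all genes, 9.84% were lower and 7.15% higher, so 1 of 8 and 1 of 7 lie near that share. With shGAL on the PA-rich diet, 2 of 6 pericyte and 1 of 3 Schwann and glial markers were below PLKO, against 4.77% of all genes. Above it were 1 of 2 adipocyte, 1 of 3 Schwann and glial and 1 of 3 neuronal markers, against 7.6%. With shEGR2_40.9 on that diet, 2 of 6 pericyte, 1 of 4 macrophage, 1 of 3 neuronal and 1 of 1 sebocyte markers were above PLKO, against 2.53%. There 1 of 2 fibroblast markers was lower, against 1.49%. With shEGR2_38.9, 1 of 4 macrophage and 1 of 3 neuronal markers were higher, against 0.49%. The sebocyte marker tested was Far2, the only 1 of 5 above the dim limit. Neuronal sums on the control and PA-rich diets were 1180 to 1291 and 911 to 1002 with PLKO, and overlapped with the other hairpins. Fibroblast sums were 4209 to 4799 and 2999 to 3076 with shEGR2_40.9, and overlapped with the other hairpins. The part of these cells in the differences between groups was not tested.

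**Figure D1:**
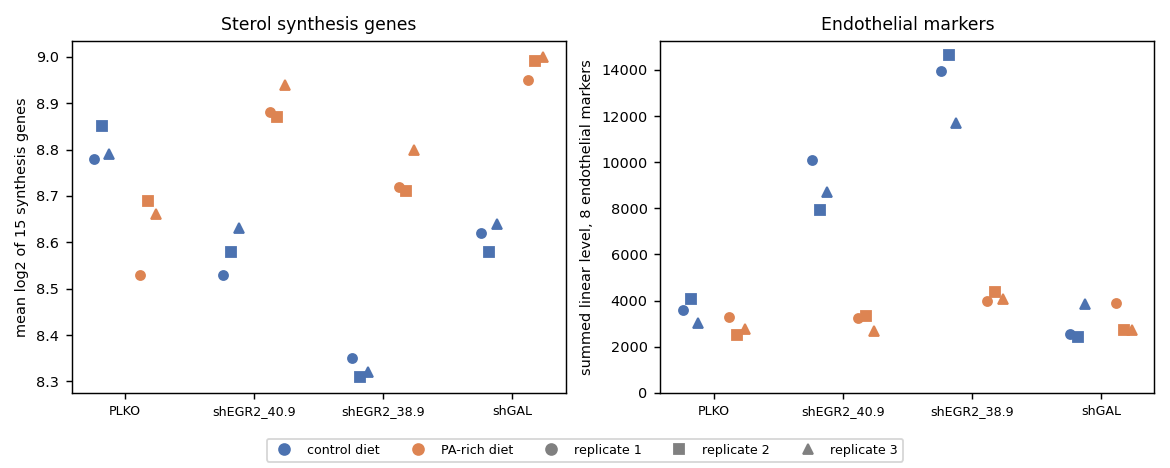
Each point is 1 array, by hairpin (x axis) and diet (colour), with marker shape for the replicate number. The left axis gives the mean log2 level of 15 synthesis genes, which spans 8.31 to 9.0, and the right axis the summed linear level of 8 endothelial markers, which spans 2406 to 14654 and is highest with shEGR2_38.9 on the control diet.

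Synthesis genes rose on the PA-rich diet with 3 of the 4 hairpins, where the diet effect is PA-rich minus control. Tests were limma's moderated two-sided tests, with p-values adjusted by Benjamini and Hochberg over all 11844 genes, and a change counts as called under an adjusted p of 0.05. With PLKO, 0 of the 15 synthesis genes rose and 1, Fdps, fell (0 and 7 at an unadjusted p under 0.05), while 1.18% of all genes were called, 0.371% as higher and 0.811% as lower. The median synthesis change was -0.21 against 0.01 over all genes. With shEGR2_40.9, 7 of 15 rose and 0 fell, against 3.73% of all genes that rose and 5.22% that fell (8.95% in all), and the median was 0.27 against 0.03. With shEGR2_38.9, 12 of 15 rose and 0 fell, against 13.8% that rose and 8.3% that fell (22.1% in all), and the median was 0.41 against 0.07. Without shEGR2_38.9 control replicate 3, 11 of 15 rose and the median was 0.42. With shGAL, 7 of 15 rose and 0 fell, against 1.33% that rose and 0.608% that fell (1.94% in all), and the median was 0.41 against -0.01. Keratinocyte markers rose for 3 of 7 with shEGR2_38.9, and 0 of 7 were called with the other 3 hairpins. Macrophage markers fell for 3 of 4 with shEGR2_38.9, 2 of 4 with shEGR2_40.9 and 1 of 4 with PLKO. Pericyte and smooth muscle markers fell for 3 of 6 with shEGR2_38.9 and rose for 1 of 6 with PLKO, and 1 of 2 adipocyte markers fell with each EGR2 hairpin. Of 3 Schwann and glial markers, 1 rose with each EGR2 hairpin, and of 3 neuronal markers, 1 fell with PLKO. Of 2 fibroblast markers, 1 fell with shEGR2_40.9 and 1 rose with shEGR2_38.9. The part of these markers was not tested.

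These counts varied with single arrays. Over the 23 genes the count called with PLKO was 2, but 0 without PLKO control replicate 1 or PLKO PA-rich replicate 1, 1 without PLKO control replicate 3, and 4 without shEGR2_38.9 control replicate 3. With shEGR2_40.9 it was 8, but 5 without shEGR2_40.9 control replicate 1 or 2 or shEGR2_40.9 PA-rich replicate 2 or 3. With shGAL it was 9, but 5 without shGAL PA-rich replicate 3. With shEGR2_38.9 it was 17 and stayed between 14 and 18.

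**Figure D2:**
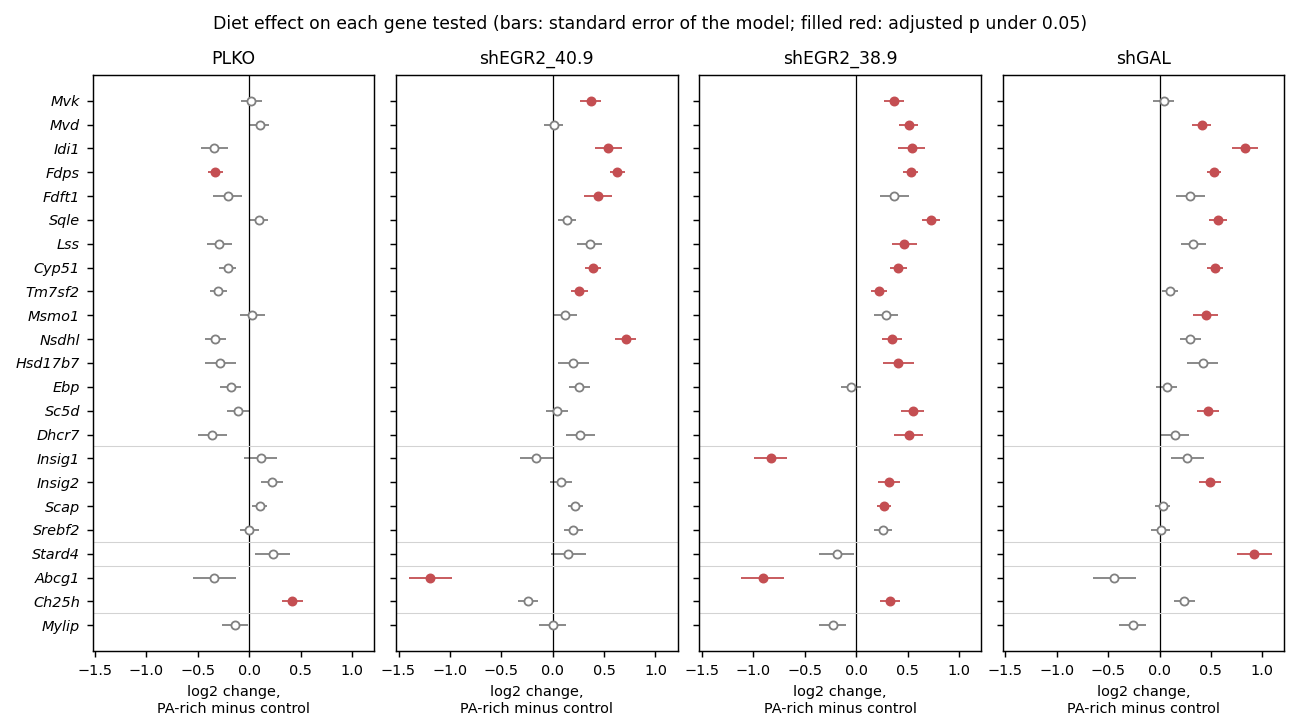
Each point is the log2 change of 1 gene (y axis), PA-rich minus control diet (x axis), for 1 hairpin per panel, and bars are the standard error of the model. Filled red points have an adjusted p under 0.05. Synthesis genes fill the top block, where 12 of 15 are red with shEGR2_38.9, 7 with shEGR2_40.9, 7 with shGAL and 1 with PLKO.

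The diet effect was then compared with the one seen with PLKO, as a difference of differences. These 3 tests share the PLKO arrays and are not independent. For shEGR2_40.9, 6 of 15 synthesis genes responded more positively, against 1.8% of all genes (2.36% less positively, 4.16% in all), with a median difference of 0.55. For shEGR2_38.9, 12 of 15 did, against 7.84% (5.52% less positively, 13.4% in all), with a median of 0.64, and 10 of 15 without shEGR2_38.9 control replicate 3. For shGAL, 4 of 15 did, against 1.01% (0.321% less positively, 1.33% in all), with a median of 0.51. Over the 23 genes, 7 were called for shEGR2_40.9 and 11 without shEGR2_38.9 control replicate 3, while 4 were called for shGAL and 7 without that array. Median differences over all genes were 0.02, 0.06 and -0.01. Between the EGR2 hairpins, the diet effect of 3 of 15, Mvd, Sqle and Sc5d, was more positive with shEGR2_38.9, against 3.77% of all genes (1.81% less positive, 5.57% in all). Without shEGR2_38.9 control replicate 3 it was called for 2 of 15. Over the 23 genes this count was 4, and 2 without shEGR2_40.9 control replicate 3 or shEGR2_38.9 PA-rich replicate 3.

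Hairpins were also compared with PLKO on each diet. On the control diet synthesis genes were lower. With shEGR2_40.9, 5 of 15 were lower and 0 higher, against 4.94% of all genes that were lower and 7.19% that were higher (12.1% in all), with a median of -0.22. With shEGR2_38.9, 13 of 15 were lower and 0 higher, against 19.1% lower and 11.2% higher (30.4% in all), with a median of -0.41, and 12 of 15 without replicate 3 of that group. With shGAL, 7 of 15 were lower, against 9.84%, and 1, Sqle, was higher, against 7.15% (17% in all), with a median of -0.29. The PA-rich diet showed the opposite direction or no call. With shEGR2_40.9, 4 of 15 were higher and 0 lower, against 2.53% of all genes higher and 1.49% lower (4.02% in all), with a median of 0.27. With shGAL, 9 of 15 were higher and 0 lower, against 7.6% higher and 4.77% lower (12.4% in all), with a median of 0.40. With shEGR2_38.9, 0 of 15 passed limma's test while 0.625% of all genes did (0.49% higher, 0.135% lower), and the synthesis changes lay between 0.00 and 0.25, with 3 of 15 at an unadjusted p under 0.05. All median changes over all genes lay between -0.08 and -0.01.

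Over the 23 genes these counts again turned on single arrays. For shEGR2_40.9 on the control diet the count of 6 became 3 without shEGR2_40.9 control replicate 1 or 2, and on the PA-rich diet the count of 5 became 9 without shEGR2_38.9 control replicate 3. For shGAL the control-diet count of 9 became 5 without shGAL control replicate 2, and the PA-rich count of 11 became 7 without PLKO PA-rich replicate 1 and 6 without shGAL PA-rich replicate 3. Each hairpin shared 1 scan batch with PLKO, with 1 array per diet on each side. There the difference had the sign of the called change for 6 of 6, 18 of 18 and 9 of 9 genes on the control diet and for 5 of 5, 1 of 1 and 11 of 11 on the PA-rich diet, in the order shEGR2_40.9, shEGR2_38.9 and shGAL. These arrays are part of the comparisons that gave the calls, so the agreement was largely set in advance. It is no test of scan batch.

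**Figure D3:**
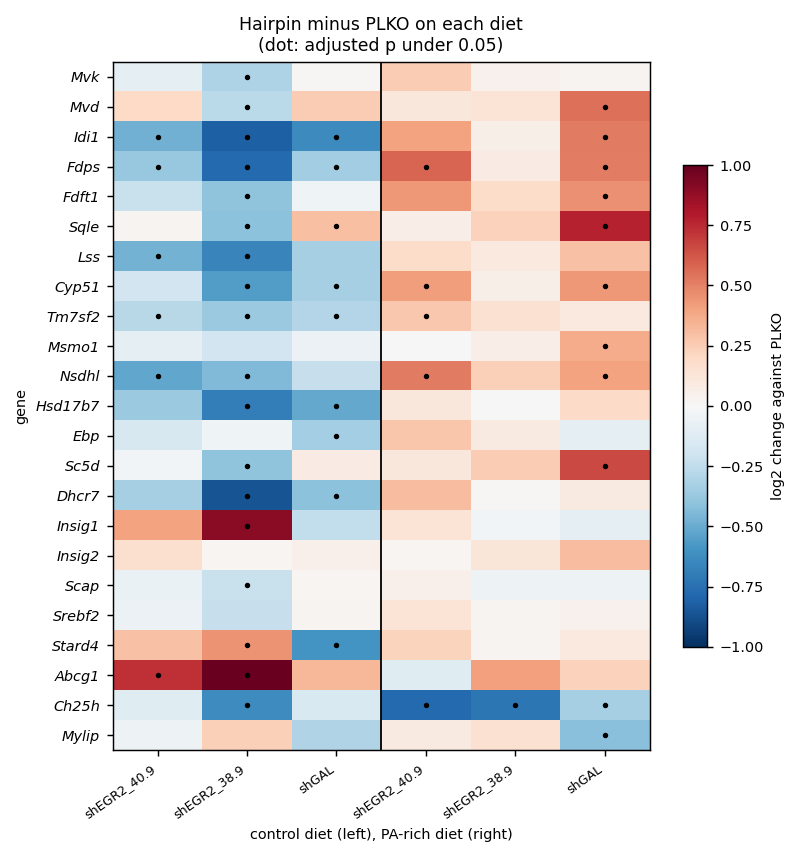
Colour gives the log2 change of each gene (rows) for 3 hairpins against PLKO, on the control diet in the left 3 columns and the PA-rich diet in the right 3. A dot marks an adjusted p under 0.05. The synthesis rows are mostly blue on the control diet, with 13 of 15 dotted for shEGR2_38.9, and mostly red on the PA-rich diet, with 9 of 15 dotted for shGAL.

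Early steps lead from mevalonate to farnesyl diphosphate, which also feeds protein prenylation. Mvk phosphorylates mevalonate. Mvk on the control diet read 9.16, 9.38 and 9.06 with PLKO, 9.15, 8.93 and 9.22 with shEGR2_40.9, 8.96, 8.78 and 8.92 with shEGR2_38.9, and 9.08, 9.50 and 9.05 with shGAL. Mvk on the PA-rich diet read 9.19, 9.15 and 9.30 with PLKO, 9.46, 9.49 and 9.45 with shEGR2_40.9, 9.29, 9.21 and 9.28 with shEGR2_38.9, and 9.28, 9.24 and 9.23 with shGAL. The diets did not overlap with either EGR2 hairpin and overlapped with PLKO and shGAL, where shGAL control replicate 2 was high. Mvk rose by 0.37 ± 0.10 (adjusted p = 0.0231) with shEGR2_40.9 and by 0.37 ± 0.10 (adjusted p = 0.00957) with shEGR2_38.9, where ± is the standard error of the model. The first of these calls was lost without shEGR2_40.9 control replicate 2 or shEGR2_40.9 PA-rich replicate 1, 2 or 3 (adjusted p from 0.0641 to 0.132). Control-diet Mvk with shEGR2_38.9 differed from PLKO by -0.31 ± 0.10 (adjusted p = 0.0221), a call lost without PLKO control replicate 2 or shEGR2_38.9 control replicate 2 (adjusted p = 0.131 and 0.0838 in turn). Mvk was not called for the diet effect with shEGR2_38.9 with the mean of probe sets (0.28, adjusted p = 0.051). Mvk was not called for the control-diet difference of shEGR2_38.9 from PLKO with the mean of probe sets (-0.25, adjusted p = 0.0659) or in a fit of only the arrays compared (adjusted p = 0.105).

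Mvd decarboxylates the mevalonate product to isopentenyl diphosphate. Mvd on the control diet read 7.97, 8.06 and 7.89 with PLKO, 8.18, 8.05 and 8.28 with shEGR2_40.9, 7.80, 7.72 and 7.60 with shEGR2_38.9, and 8.23, 8.36 and 8.07 with shGAL. Mvd on the PA-rich diet read 8.08, 8.11 and 8.03 with PLKO, 8.17, 8.20 and 8.17 with shEGR2_40.9, 8.19, 8.12 and 8.33 with shEGR2_38.9, and 8.45, 8.76 and 8.67 with shGAL. Diets were apart with shEGR2_38.9 and shGAL only, and the shGAL PA-rich arrays were the highest. Mvd rose by 0.51 ± 0.09 (adjusted p = 0.000177) with shEGR2_38.9 and by 0.41 ± 0.09 (adjusted p = 0.0161) with shGAL. The shGAL call was lost without shGAL control replicate 3 or shGAL PA-rich replicate 2 or 3 (adjusted p from 0.0506 to 0.0957). The diet effect with shEGR2_38.9 exceeded that with PLKO by 0.41 ± 0.12 (adjusted p = 0.0319) and that with shEGR2_40.9 by 0.50 ± 0.12 (adjusted p = 0.0177). The first was lost without PLKO control replicate 2, PLKO PA-rich replicate 1 or 3, shEGR2_38.9 control replicate 3 or shEGR2_38.9 PA-rich replicate 3 (adjusted p from 0.0599 to 0.0966), and the second without shEGR2_40.9 control replicate 3 or shEGR2_38.9 PA-rich replicate 3 (adjusted p = 0.0598 and 0.0591 in turn). Against PLKO, Mvd was lower with a difference of -0.27 with shEGR2_38.9 on the control diet (adjusted p = 0.0258) and higher by 0.55 ± 0.09 (adjusted p = 0.000165) with shGAL on the PA-rich diet. The former was lost without PLKO control replicate 1 or 2 or shEGR2_38.9 control replicate 3 (adjusted p from 0.0529 to 0.104). Mvd was not called for the diet effect with shGAL in a fit of only the arrays compared (adjusted p = 0.152). Mvd was not called for the control-diet difference of shEGR2_38.9 from PLKO with array weights (-0.21, adjusted p = 0.106) or in a fit of only the arrays compared (adjusted p = 0.117). Mvd was not called for the difference in diet effect between shEGR2_38.9 and PLKO with renewed quantile normalization (0.37, adjusted p = 0.0524) or with the mean of probe sets (0.26, adjusted p = 0.179). Mvd was not called for the difference in diet effect between shEGR2_38.9 and shEGR2_40.9 with the mean of probe sets (0.30, adjusted p = 0.171).

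Idi1 interconverts isopentenyl and dimethylallyl diphosphate. Idi1 on the control diet read 9.11, 9.38 and 9.17 with PLKO, 8.55, 8.76 and 8.92 with shEGR2_40.9, 8.27, 8.32 and 8.63 with shEGR2_38.9, and 8.54, 8.39 and 8.81 with shGAL. Idi1 on the PA-rich diet read 8.75, 9.08 and 8.82 with PLKO, 9.37, 9.20 and 9.29 with shEGR2_40.9, 8.94, 8.89 and 9.0 with shEGR2_38.9, and 9.33, 9.24 and 9.66 with shGAL. The diets did not overlap with any hairpin, and the direction with PLKO was downward, though its change of -0.34 ± 0.13 (adjusted p = 0.275) did not pass. Idi1 rose by 0.54 ± 0.13 (adjusted p = 0.0069) with shEGR2_40.9, by 0.54 ± 0.13 (adjusted p = 0.0032) with shEGR2_38.9 and by 0.83 ± 0.13 (adjusted p = 0.000989) with shGAL, the last a fold of 1.78. Within the 3 scan batches the shGAL differences were 0.79, 0.86 and 0.85. The first call was lost without shEGR2_40.9 control replicate 1 (adjusted p = 0.0532). These diet effects exceeded the one with PLKO by 0.88 ± 0.18 (adjusted p = 0.00595), 0.88 ± 0.18 (adjusted p = 0.00185) and 1.17 ± 0.18 (adjusted p = 0.00113) in the same order of hairpins. Idi1 on the control diet was below PLKO with a difference of -0.48, -0.82 and -0.64, with adjusted p of 0.0141, 3.67e-05 and 0.0012. The first of these was lost without PLKO control replicate 2 or shEGR2_40.9 control replicate 1 (adjusted p = 0.0801 and 0.0849 in turn). With shGAL on the PA-rich diet it was above PLKO by 0.52 ± 0.13 (adjusted p = 0.00717), a call lost without shGAL PA-rich replicate 3 (adjusted p = 0.0622).

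Fdps joins these units into farnesyl diphosphate. Fdps on the control diet read 9.13, 9.01 and 9.08 with PLKO, 8.77, 8.78 and 8.53 with shEGR2_40.9, 8.32, 8.34 and 8.22 with shEGR2_38.9, and 8.67, 8.79 and 8.72 with shGAL. Fdps on the PA-rich diet read 8.62, 8.82 and 8.80 with PLKO, 9.35, 9.31 and 9.32 with shEGR2_40.9, 8.81, 8.78 and 8.88 with shEGR2_38.9, and 9.26, 9.32 and 9.19 with shGAL. No hairpin showed overlap between diets, and PLKO was the only one whose PA-rich arrays were the lower. Fdps fell by 0.33 on the log2 scale with PLKO, with a standard error of 0.07 and an adjusted p of 0.027. That call was lost without PLKO control replicate 1 or 3 or PLKO PA-rich replicate 1 (adjusted p from 0.0892 to 0.188). It rose by 0.63 ± 0.07 (adjusted p = 4.49e-06), 0.53 ± 0.07 (adjusted p = 1.18e-05) and 0.53 ± 0.07 (adjusted p = 0.000492) with shEGR2_40.9, shEGR2_38.9 and shGAL, folds of 1.55, 1.45 and 1.44. The effect exceeded that with PLKO by 0.96 ± 0.10 (adjusted p = 1.17e-05), 0.86 ± 0.10 (adjusted p = 7.14e-06) and 0.86 ± 0.10 (adjusted p = 0.000126). On the control diet the level was below PLKO with a difference of -0.38, -0.78 and -0.35 (adjusted p = 0.00115, 4.46e-08 and 0.00231), and on the PA-rich diet above it by 0.58 with shEGR2_40.9 and 0.51 with shGAL (adjusted p = 3.74e-05 and 4.56e-05). Fdps was not called for the diet effect with PLKO in a fit of only the arrays compared (adjusted p = 0.124).

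**Figure D4:**
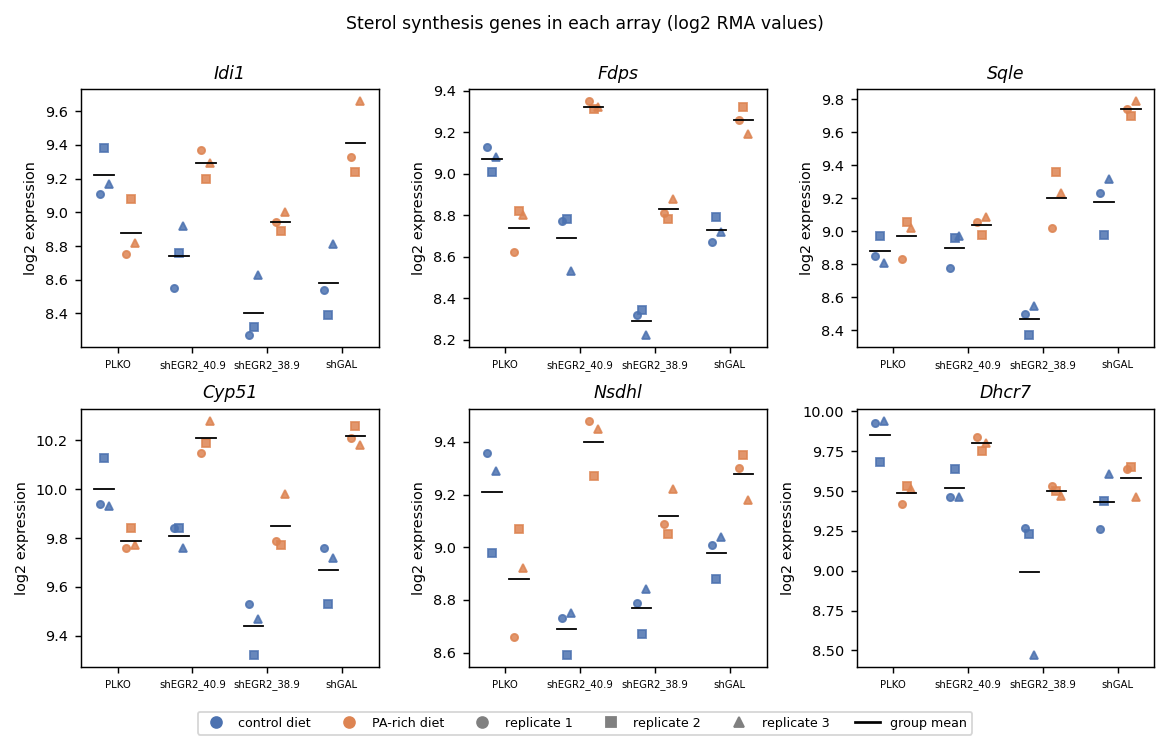
Each point is 1 array's log2 RMA value for a synthesis gene, by hairpin on the x axis and diet in colour, with marker shape for the replicate number and a black line for the group mean. In Fdps and Idi1 the PLKO mean is higher on the control diet (9.07 and 9.22) than on the PA-rich diet (8.74 and 8.88), while the other 3 hairpins show the reverse.

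Later steps form squalene and then sterols. Fdft1, squalene synthase, commits farnesyl units to sterols. Fdft1 on the control diet read 8.36, 8.62 and 8.36 with PLKO, 8.26, 8.01 and 8.43 with shEGR2_40.9, 7.88, 7.98 and 8.29 with shEGR2_38.9, and 8.35, 8.47 and 8.39 with shGAL. Fdft1 on the PA-rich diet read 8.16, 8.20 and 8.35 with PLKO, 8.44, 8.70 and 8.86 with shEGR2_40.9, 8.27, 8.26 and 8.71 with shEGR2_38.9, and 8.61, 8.58 and 8.92 with shGAL. Arrays of the diets did not overlap with PLKO, shEGR2_40.9 or shGAL but overlapped with shEGR2_38.9. Fdft1 rose with shEGR2_40.9 by 0.44 ± 0.14 (adjusted p = 0.0461), a call ended by leaving out any 1 of 13 of the 24 arrays (adjusted p up to 0.228). The diet effect with shEGR2_38.9 exceeded that with PLKO by 0.58 ± 0.19 (adjusted p = 0.05, just under the threshold), and leaving out any 1 of 15 of the 24 arrays (adjusted p up to 0.161) ended that call. The change with shEGR2_38.9 was 0.37 ± 0.14 (adjusted p = 0.0566), not called, or 0.49 (adjusted p = 0.0202) without shEGR2_38.9 control replicate 3. Fdft1 was below PLKO with shEGR2_38.9 on the control diet with a difference of -0.40 ± 0.14 (adjusted p = 0.0306) and above it with shGAL on the PA-rich diet by 0.46 ± 0.14 (adjusted p = 0.0275). The former was lost without PLKO control replicate 2 or shEGR2_38.9 control replicate 1 or 2 (adjusted p from 0.0801 to 0.134), and the latter without PLKO PA-rich replicate 1 or 2 or shGAL PA-rich replicate 3 (adjusted p from 0.0849 to 0.153). Fdft1 was not called for the diet effect with shEGR2_40.9 without the dim filter (adjusted p = 0.0602) or in a fit of only the arrays compared (adjusted p = 0.0654). Fdft1 was not called for the control-diet difference of shEGR2_38.9 from PLKO in a fit of only the arrays compared (adjusted p = 0.0816). Fdft1 was not called for the difference in diet effect between shEGR2_38.9 and PLKO without the dim filter (adjusted p = 0.0647), with renewed quantile normalization (0.53, adjusted p = 0.0774) or in a fit of only the arrays compared (adjusted p = 0.0744).

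Sqle adds the epoxide to squalene and is a rate-limiting step of the pathway. Sqle on the control diet read 8.85, 8.97 and 8.81 with PLKO, 8.78, 8.96 and 8.97 with shEGR2_40.9, 8.50, 8.37 and 8.55 with shEGR2_38.9, and 9.23, 8.98 and 9.32 with shGAL. Sqle on the PA-rich diet read 8.83, 9.06 and 9.02 with PLKO, 9.06, 8.98 and 9.09 with shEGR2_40.9, 9.02, 9.36 and 9.23 with shEGR2_38.9, and 9.74, 9.70 and 9.79 with shGAL. The 3 shGAL PA-rich arrays were the highest of all and the 3 shEGR2_38.9 control arrays the lowest. Diets overlapped with PLKO only. Sqle rose by 0.73 ± 0.09 (adjusted p = 5.19e-06) with shEGR2_38.9, a fold of 1.66, and by 0.57 ± 0.09 (adjusted p = 0.00252) with shGAL. The effect with shEGR2_38.9 exceeded that with PLKO by 0.64 ± 0.13 (adjusted p = 0.00237) and that with shEGR2_40.9 by 0.59 ± 0.13 (adjusted p = 0.00942). Against PLKO, Sqle was lower with shEGR2_38.9 on the control diet with a difference of -0.41 ± 0.09 (adjusted p = 0.00242), and higher with shGAL by 0.30 ± 0.09 (adjusted p = 0.0328) on the control diet and 0.77 ± 0.09 (adjusted p = 7.01e-06) on the PA-rich diet. The control-diet call for shGAL was lost without PLKO control replicate 1 or 3 or shGAL control replicate 1 or 3 (adjusted p from 0.0812 to 0.139). Sqle was not called for the control-diet difference of shGAL from PLKO in a fit of only the arrays compared (adjusted p = 0.099).

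Lss closes the ring to form lanosterol, and its levels lay near the dim limit. Lss on the control diet read 6.55, 6.71 and 6.92 with PLKO, 6.32, 6.10 and 6.35 with shEGR2_40.9, 6.25, 5.85 and 6.10 with shEGR2_38.9, and 6.50, 6.43 and 6.27 with shGAL. Lss on the PA-rich diet read 6.21, 6.42 and 6.69 with PLKO, 6.49, 6.77 and 6.59 with shEGR2_40.9, 6.65, 6.49 and 6.46 with shEGR2_38.9, and 6.76, 6.68 and 6.76 with shGAL. PLKO arrays overlapped between diets and those of the other hairpins did not. Lss rose by 0.47 ± 0.12 (adjusted p = 0.00671) with shEGR2_38.9. The effect exceeded that with PLKO by 0.65 ± 0.17 (adjusted p = 0.0316) for shEGR2_40.9 and 0.76 ± 0.17 (adjusted p = 0.00406) for shEGR2_38.9, and the first call was lost without PLKO control replicate 2 or 3, PLKO PA-rich replicate 1 or 2, shEGR2_40.9 control replicate 2 or shEGR2_40.9 PA-rich replicate 2 or 3 (adjusted p from 0.0511 to 0.103). Control-diet Lss was below PLKO with a difference of -0.47 ± 0.12 (adjusted p = 0.0117) with shEGR2_40.9, lost without PLKO control replicate 3 or shEGR2_40.9 control replicate 2 (adjusted p = 0.0857 and 0.0613 in turn), and with a difference of -0.66 ± 0.12 (adjusted p = 0.000226) with shEGR2_38.9.

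Cyp51 removes a methyl group from lanosterol. Cyp51 on the control diet read 9.94, 10.13 and 9.93 with PLKO, 9.84, 9.84 and 9.76 with shEGR2_40.9, 9.53, 9.32 and 9.47 with shEGR2_38.9, and 9.76, 9.53 and 9.72 with shGAL. Cyp51 on the PA-rich diet read 9.76, 9.84 and 9.77 with PLKO, 10.15, 10.19 and 10.28 with shEGR2_40.9, 9.79, 9.77 and 9.98 with shEGR2_38.9, and 10.21, 10.26 and 10.18 with shGAL. In each of the 4 hairpins the diets did not overlap, with PLKO arrays lower on the PA-rich diet and the others higher. Cyp51 rose by 0.39 ± 0.08 (adjusted p = 0.00187), 0.41 ± 0.08 (adjusted p = 0.000551) and 0.54 ± 0.08 (adjusted p = 0.000627) with shEGR2_40.9, shEGR2_38.9 and shGAL. The effect exceeded that with PLKO by 0.60 ± 0.11 (adjusted p = 0.00271), 0.62 ± 0.11 (adjusted p = 0.000533) and 0.76 ± 0.11 (adjusted p = 0.000862). Another Cyp51 probe set with a lower mean of 6.49 gave -0.23 and -0.04 for the diet effect with shEGR2_38.9 and shGAL. With the mean of probe sets these effects were 0.09 and 0.23 and neither was called (adjusted p = 0.346 and 0.0705). The differences from PLKO in diet effect then became 0.24 with shEGR2_38.9 and 0.37 with shGAL, and these calls were lost too (adjusted p = 0.112 and 0.0525). Cyp51 was below PLKO on the control diet with a difference of -0.56 ± 0.08 (adjusted p = 9.99e-06) with shEGR2_38.9 and -0.33 ± 0.08 (adjusted p = 0.0053) with shGAL, and above it on the PA-rich diet by 0.42 ± 0.08 (adjusted p = 0.00246) with shEGR2_40.9 and 0.43 ± 0.08 (adjusted p = 0.000696) with shGAL. On the PA-rich diet with shGAL the probe set with a mean of 6.49 gave -0.03, and the mean of probe sets gave 0.17, which ended the call (adjusted p = 0.1). With only the arrays compared, the control-diet call for shGAL was lost (adjusted p = 0.0572).

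Tm7sf2 is a sterol reductase acting next. Tm7sf2 on the control diet read 8.34, 8.34 and 8.23 with PLKO, 7.92, 7.98 and 8.17 with shEGR2_40.9, 7.97, 7.89 and 7.94 with shEGR2_38.9, and 8.01, 8.07 and 7.95 with shGAL. Tm7sf2 on the PA-rich diet read 7.99, 7.86 and 8.17 with PLKO, 8.35, 8.21 and 8.27 with shEGR2_40.9, 8.12, 8.14 and 8.21 with shEGR2_38.9, and 8.14, 8.08 and 8.10 with shGAL. Diets did not overlap with any hairpin, yet the steps were small, and with shGAL they were 0.01 apart at the nearest pair of arrays. Tm7sf2 rose by 0.26 ± 0.08 (adjusted p = 0.0379) with shEGR2_40.9 and 0.22 ± 0.08 (adjusted p = 0.042) with shEGR2_38.9. With scan batch as a block these had an adjusted p of 0.0527 and 0.0554, and they were ended by leaving out, for the first, shEGR2_40.9 control replicate 1 or 2 or shEGR2_40.9 PA-rich replicate 1, 2 or 3 (adjusted p from 0.0538 to 0.167) and, for the other, shEGR2_40.9 PA-rich replicate 3, shEGR2_38.9 control replicate 2 or 3 or shEGR2_38.9 PA-rich replicate 1, 2 or 3 (adjusted p from 0.0514 to 0.142). The effect exceeded that with PLKO by 0.55 ± 0.11 (adjusted p = 0.00477) and 0.52 ± 0.11 (adjusted p = 0.00242). On the control diet it was below PLKO with a difference of -0.28 ± 0.08 (adjusted p = 0.0177), -0.37 ± 0.08 (adjusted p = 0.000919) and -0.29 ± 0.08 (adjusted p = 0.0111), the first lost without PLKO control replicate 1 or 2 or shEGR2_40.9 control replicate 1 or 2 (adjusted p from 0.0595 to 0.0916). With shEGR2_40.9 on the PA-rich diet it was above PLKO by 0.27 ± 0.08 (adjusted p = 0.0485), but with the block the adjusted p was 0.195 and leaving out any 1 of 18 of the 24 arrays (adjusted p up to 0.264) ended the call. Tm7sf2 was not called for the diet effect with shEGR2_40.9 with a trended, robust prior (adjusted p = 0.051), with array weights (0.20, adjusted p = 0.0562) or in a fit of only the arrays compared (adjusted p = 0.0824). Tm7sf2 was not called for the diet effect with shEGR2_38.9 with renewed quantile normalization (0.20, adjusted p = 0.0836), with a trended, robust prior (adjusted p = 0.055) or in a fit of only the arrays compared (adjusted p = 0.118). Tm7sf2 was not called for the control-diet difference of shEGR2_40.9 from PLKO with array weights (-0.22, adjusted p = 0.0672) or in a fit of only the arrays compared (adjusted p = 0.082). Tm7sf2 was not called for the PA-rich difference of shEGR2_40.9 from PLKO without the dim filter (adjusted p = 0.0501), with renewed quantile normalization (0.24, adjusted p = 0.0964), with a trended, robust prior (adjusted p = 0.0655) or in a fit of only the arrays compared (adjusted p = 0.0793).

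Msmo1 oxidises methyl groups of early sterols. Msmo1 on the control diet read 7.40, 7.66 and 7.63 with PLKO, 7.24, 7.60 and 7.59 with shEGR2_40.9, 7.21, 7.34 and 7.58 with shEGR2_38.9, and 7.60, 7.35 and 7.58 with shGAL. Msmo1 on the PA-rich diet read 7.44, 7.76 and 7.59 with PLKO, 7.57, 7.51 and 7.72 with shEGR2_40.9, 7.54, 7.73 and 7.74 with shEGR2_38.9, and 7.87, 7.93 and 8.08 with shGAL. Diets were apart with shGAL only. Msmo1 rose by 0.45 ± 0.12 (adjusted p = 0.0432) with shGAL and was above PLKO there by 0.37 ± 0.12 (adjusted p = 0.0402). The change with shEGR2_38.9 was 0.29 ± 0.12 (adjusted p = 0.0711), not called, or 0.40 (adjusted p = 0.023) without shEGR2_38.9 control replicate 3. The call for diet with shGAL was ended by leaving out any 1 of 10 of the 24 arrays (adjusted p up to 0.266), and the other by leaving out PLKO PA-rich replicate 1 or 3 or shGAL PA-rich replicate 1, 2 or 3 (adjusted p from 0.0537 to 0.184). The other Msmo1 probe set, with a mean of 7.22, gave -0.11 and -0.32 for the same comparisons. Msmo1 was not called for the diet effect with shGAL without the dim filter (adjusted p = 0.0565), with renewed quantile normalization (0.44, adjusted p = 0.0611), with the mean of probe sets (0.17, adjusted p = 0.293) or in a fit of only the arrays compared (adjusted p = 0.0903). Msmo1 was not called for the PA-rich difference of shGAL from PLKO without the dim filter (adjusted p = 0.0527), with renewed quantile normalization (0.35, adjusted p = 0.0541) or with the mean of probe sets (0.02, adjusted p = 0.888).

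Nsdhl removes the methyl groups in the step that follows. Nsdhl on the control diet read 9.36, 8.98 and 9.29 with PLKO, 8.73, 8.59 and 8.75 with shEGR2_40.9, 8.79, 8.67 and 8.84 with shEGR2_38.9, and 9.01, 8.88 and 9.04 with shGAL. Nsdhl on the PA-rich diet read 8.66, 9.07 and 8.92 with PLKO, 9.48, 9.27 and 9.45 with shEGR2_40.9, 9.09, 9.05 and 9.22 with shEGR2_38.9, and 9.30, 9.35 and 9.18 with shGAL. PLKO arrays overlapped between diets, and those of the other hairpins did not. Nsdhl rose by 0.71 ± 0.10 (adjusted p = 5.96e-05) with shEGR2_40.9 and by 0.35 ± 0.10 (adjusted p = 0.0151) with shEGR2_38.9, where the call was lost without shEGR2_38.9 control replicate 2 or shEGR2_38.9 PA-rich replicate 3 (adjusted p = 0.0562 and 0.0783 in turn). The effect exceeded that with PLKO by 1.04 ± 0.14 (adjusted p = 0.000219), 0.68 ± 0.14 (adjusted p = 0.0026) and 0.63 ± 0.14 (adjusted p = 0.0282), and the last was lost without PLKO control replicate 1 or 3, PLKO PA-rich replicate 1, shGAL control replicate 1 or 2 or shGAL PA-rich replicate 1 or 2 (adjusted p from 0.0527 to 0.0994). Control-diet Nsdhl was below PLKO with a difference of -0.52 ± 0.10 (adjusted p = 0.00122) with shEGR2_40.9 and -0.44 ± 0.10 (adjusted p = 0.0022) with shEGR2_38.9. On the PA-rich diet it was above PLKO by 0.52 ± 0.10 (adjusted p = 0.00396) with shEGR2_40.9 and by 0.40 ± 0.10 (adjusted p = 0.0119) with shGAL, lost without PLKO PA-rich replicate 1 or shGAL PA-rich replicate 2 (adjusted p = 0.0986 and 0.0585 in turn). Nsdhl was not called for the difference in diet effect between shGAL and PLKO with renewed quantile normalization (0.56, adjusted p = 0.0718) or in a fit of only the arrays compared (adjusted p = 0.0879).

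Hsd17b7 is the ketoreductase that completes demethylation. Hsd17b7 on the control diet read 9.08, 8.90 and 8.89 with PLKO, 8.41, 8.72 and 8.62 with shEGR2_40.9, 8.20, 8.63 and 7.96 with shEGR2_38.9, and 8.40, 8.15 and 8.80 with shGAL. Hsd17b7 on the PA-rich diet read 8.57, 8.85 and 8.61 with PLKO, 8.81, 8.71 and 8.83 with shEGR2_40.9, 8.68, 8.82 and 8.53 with shEGR2_38.9, and 8.73, 8.86 and 9.02 with shGAL. The PLKO arrays did not overlap between diets and were lower on the PA-rich diet, while the other hairpins overlapped. Hsd17b7 rose with shEGR2_38.9 by 0.41 ± 0.15 (adjusted p = 0.0477), a call ended by leaving out any 1 of 16 of the 24 arrays (adjusted p up to 0.263), among them shEGR2_38.9 control replicate 3, without which the change was 0.26 (adjusted p = 0.263). The effect exceeded that with PLKO by 0.69 ± 0.21 (adjusted p = 0.0291), lost without PLKO control replicate 1, PLKO PA-rich replicate 1 or 3, shEGR2_38.9 control replicate 1 or 3 or shEGR2_38.9 PA-rich replicate 1 or 2 (adjusted p from 0.0506 to 0.084). Control-diet Hsd17b7 was below PLKO with a difference of -0.69 ± 0.15 (adjusted p = 0.00108) with shEGR2_38.9 and with a difference of -0.51 ± 0.15 (adjusted p = 0.0194) with shGAL. The shGAL call was lost without PLKO control replicate 1 or shGAL control replicate 1 or 2 (adjusted p from 0.0645 to 0.131) and had an adjusted p of 0.0907 with scan batch as a block. Hsd17b7 was not called for the diet effect with shEGR2_38.9 without the dim filter (adjusted p = 0.0613), with renewed quantile normalization (0.38, adjusted p = 0.052), with array weights (0.27, adjusted p = 0.114) or in a fit of only the arrays compared (adjusted p = 0.16). Hsd17b7 was not called for the control-diet difference of shGAL from PLKO in a fit of only the arrays compared (adjusted p = 0.0637). Another Hsd17b7 probe set, with a mean of 6.32 just above the dim limit, gave -0.09 for the diet effect with shEGR2_38.9. It gave 0.03 for the control-diet difference of that hairpin from PLKO and -0.09 for their difference in diet effect.

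Ebp shifts a double bond in the sterol ring. Ebp on the control diet read 10.40, 10.55 and 10.46 with PLKO, 10.27, 10.43 and 10.22 with shEGR2_40.9, 10.43, 10.21 and 10.64 with shEGR2_38.9, and 10.27, 10.08 and 10.02 with shGAL. Ebp on the PA-rich diet read 10.21, 10.31 and 10.34 with PLKO, 10.52, 10.58 and 10.60 with shEGR2_40.9, 10.38, 10.31 and 10.43 with shEGR2_38.9, and 10.18, 10.35 and 10.04 with shGAL. The diets overlapped with shEGR2_38.9 and shGAL and did not with PLKO and shEGR2_40.9. Ebp was called once, below PLKO with shGAL on the control diet with a difference of -0.34 ± 0.10 (adjusted p = 0.0158), and this was lost without PLKO control replicate 2 or shGAL control replicate 2 or 3 (adjusted p from 0.0562 to 0.0717).

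Sc5d desaturates the sterol ring. Sc5d on the control diet read 8.16, 8.42 and 8.16 with PLKO, 8.09, 8.31 and 8.22 with shEGR2_40.9, 7.93, 8.01 and 7.58 with shEGR2_38.9, and 8.43, 8.24 and 8.29 with shGAL. Sc5d on the PA-rich diet read 8.05, 8.28 and 8.06 with PLKO, 8.19, 8.14 and 8.40 with shEGR2_40.9, 8.46, 8.26 and 8.44 with shEGR2_38.9, and 8.75, 8.83 and 8.79 with shGAL. Diets were apart with shEGR2_38.9 and shGAL and overlapped with the others. Sc5d rose by 0.55 ± 0.11 (adjusted p = 0.000591) with shEGR2_38.9 and 0.47 ± 0.11 (adjusted p = 0.0208) with shGAL, the latter lost without shGAL control replicate 2 or shGAL PA-rich replicate 2 or 3 (adjusted p from 0.0734 to 0.133). Its effect with shEGR2_38.9 exceeded that with PLKO by 0.66 ± 0.15 (adjusted p = 0.00466) and that with shEGR2_40.9 by 0.51 ± 0.15 (adjusted p = 0.0474), and leaving out any 1 of 16 of the 24 arrays (adjusted p up to 0.132) ended the last call. Sc5d was below PLKO with shEGR2_38.9 on the control diet with a difference of -0.40 ± 0.11 (adjusted p = 0.00589) and above it with shGAL on the PA-rich diet by 0.66 ± 0.11 (adjusted p = 0.000184). Another Sc5d probe set, with a mean of 7.88, gave -0.04 for the diet effect with shEGR2_38.9 and -0.01 for the control-diet difference of that hairpin from PLKO, where another one, with a mean of 6.79, gave 0.09. Sc5d was not called for the control-diet difference of shEGR2_38.9 from PLKO with the mean of probe sets (-0.11, adjusted p = 0.389), with array weights (-0.28, adjusted p = 0.0518) or in a fit of only the arrays compared (adjusted p = 0.0886). Sc5d was not called for the difference in diet effect between shEGR2_38.9 and shEGR2_40.9 without the dim filter (adjusted p = 0.0599), with renewed quantile normalization (0.46, adjusted p = 0.0531), with the mean of probe sets (0.26, adjusted p = 0.264), with a trended, robust prior (adjusted p = 0.0504), with array weights (0.40, adjusted p = 0.0521) or in a fit of only the arrays compared (adjusted p = 0.111).

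Dhcr7 carries out the last reduction to cholesterol in one branch. Dhcr7 on the control diet read 9.93, 9.68 and 9.94 with PLKO, 9.46, 9.64 and 9.46 with shEGR2_40.9, 9.27, 9.23 and 8.47 with shEGR2_38.9, and 9.26, 9.44 and 9.61 with shGAL. Dhcr7 on the PA-rich diet read 9.42, 9.53 and 9.51 with PLKO, 9.84, 9.75 and 9.80 with shEGR2_40.9, 9.53, 9.50 and 9.47 with shEGR2_38.9, and 9.64, 9.65 and 9.46 with shGAL. The lowest array was shEGR2_38.9 control replicate 3, at 8.47. Diets overlapped with shGAL only, and PLKO arrays were lower on the PA-rich diet. Dhcr7 rose with shEGR2_38.9 by 0.51 ± 0.14 (adjusted p = 0.00953), or by 0.25 (adjusted p = 0.0617) without that array, which ends the call. Its effect exceeded that with PLKO by 0.87 ± 0.20 (adjusted p = 0.004), or 0.62 (adjusted p = 0.00172) without that array. Control-diet Dhcr7 was below PLKO with a difference of -0.86 ± 0.14 (adjusted p = 5.68e-05) with shEGR2_38.9, -0.60 without that array, and with a difference of -0.41 ± 0.14 (adjusted p = 0.0421) with shGAL. The shGAL call had an adjusted p of 0.0629 with scan batch as a block and was ended by leaving out PLKO control replicate 1 or 3, PLKO PA-rich replicate 3, shEGR2_40.9 PA-rich replicate 2 or 3, shEGR2_38.9 PA-rich replicate 3 or shGAL control replicate 1 or 2 (adjusted p from 0.05 to 0.18). Dhcr7 was not called for the diet effect with shEGR2_38.9 in a fit of only the arrays compared (adjusted p = 0.142). Dhcr7 was not called for the control-diet difference of shGAL from PLKO without the dim filter (adjusted p = 0.0567).

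Sensing genes set how much SREBP2 is cleaved. Insig1, itself a known SREBP target, moved against the synthesis genes with shEGR2_38.9. Insig1 on the control diet read 9.42, 10.03 and 9.73 with PLKO, 9.94, 10.10 and 10.34 with shEGR2_40.9, 10.39, 10.34 and 11.15 with shEGR2_38.9, and 9.41, 9.56 and 9.45 with shGAL. Insig1 on the PA-rich diet read 9.86, 9.72 and 9.92 with PLKO, 9.89, 10.07 and 9.95 with shEGR2_40.9, 9.83, 9.78 and 9.79 with shEGR2_38.9, and 9.86, 9.61 and 9.76 with shGAL. The highest array was shEGR2_38.9 control replicate 3, and the other 2 arrays of that group also lay above the PA-rich arrays. Insig1 fell with diet in shEGR2_38.9 with a change of -0.83 ± 0.16 (adjusted p = 0.000525), or -0.57 (adjusted p = 0.00307) without that array. On the control diet it was above PLKO by 0.90 ± 0.16 (adjusted p = 0.000159), or 0.64 (adjusted p = 0.000786) without it. The diet effect differed from that with PLKO by -0.94 ± 0.23 (adjusted p = 0.00699), or -0.68 (adjusted p = 0.0106) without it.

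Insig2, the other retention protein, rose with 2 hairpins. Insig2 on the control diet read 9.63, 9.47 and 9.69 with PLKO, 9.64, 9.92 and 9.72 with shEGR2_40.9, 9.57, 9.80 and 9.48 with shEGR2_38.9, and 9.76, 9.45 and 9.73 with shGAL. Insig2 on the PA-rich diet read 9.74, 9.92 and 9.81 with PLKO, 9.92, 9.82 and 9.77 with shEGR2_40.9, 10, 10 and 9.82 with shEGR2_38.9, and 10.07, 10 and 10.34 with shGAL. Diets overlapped with shEGR2_40.9 only. Insig2 rose by 0.32 ± 0.11 (adjusted p = 0.0303) with shEGR2_38.9 and 0.49 ± 0.11 (adjusted p = 0.0157) with shGAL. These were lost without shEGR2_38.9 control replicate 1 or 3 or shEGR2_38.9 PA-rich replicate 1 or 2 (adjusted p from 0.0677 to 0.129) and without shGAL control replicate 2 or shGAL PA-rich replicate 3 (adjusted p = 0.142 and 0.139 in turn). Insig2 was not called for the diet effect with shEGR2_38.9 in a fit of only the arrays compared (adjusted p = 0.0999). Insig2 was not called for the diet effect with shGAL in a fit of only the arrays compared (adjusted p = 0.117). Scap, the escort protein, read 9.80, 9.77 and 9.74 with PLKO, 9.59, 9.62 and 9.89 with shEGR2_40.9, 9.63, 9.58 and 9.44 with shEGR2_38.9, and 9.88, 9.74 and 9.74 with shGAL on the control diet. Scap on the PA-rich diet read 9.86, 9.85 and 9.90 with PLKO, 9.91, 9.87 and 9.98 with shEGR2_40.9, 9.81, 9.82 and 9.83 with shEGR2_38.9, and 9.77, 9.82 and 9.86 with shGAL. The diets did not overlap with PLKO or shEGR2_38.9. It rose with shEGR2_38.9 by 0.27 ± 0.07 (adjusted p = 0.0109), and was below PLKO there on the control diet with a difference of -0.22 ± 0.07 (adjusted p = 0.0285), a call lost without PLKO control replicate 1 or 2 or shEGR2_38.9 control replicate 3 (adjusted p from 0.0629 to 0.11). Scap was not called for the diet effect with shEGR2_38.9 in a fit of only the arrays compared (adjusted p = 0.0841). Scap was not called for the control-diet difference of shEGR2_38.9 from PLKO with array weights (-0.17, adjusted p = 0.107) or in a fit of only the arrays compared (adjusted p = 0.17). Srebf2, which encodes SREBP2, ranged from 9.24 to 9.81 over the arrays and was not called in any of the 14 comparisons. The lowest adjusted p was for the diet effect with shEGR2_38.9, 0.26 ± 0.09 (adjusted p = 0.0515).

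Stard4 moves sterol between membranes. Stard4 on the control diet read 7.29, 7.82 and 7.08 with PLKO, 7.75, 7.64 and 7.67 with shEGR2_40.9, 7.66, 8.01 and 7.88 with shEGR2_38.9, and 6.89, 6.47 and 7.04 with shGAL. Stard4 on the PA-rich diet read 7.65, 7.89 and 7.33 with PLKO, 7.64, 8.01 and 7.87 with shEGR2_40.9, 7.51, 7.58 and 7.88 with shEGR2_38.9, and 7.73, 7.73 and 7.71 with shGAL. The 3 shGAL control arrays were the lowest of all, and the diets overlapped with every hairpin but shGAL. Stard4 rose with shGAL by 0.92 ± 0.17 (adjusted p = 0.00408), a fold of 1.9, and within the 3 scan batches by 0.84, 1.26 and 0.67. Control-diet Stard4 was below PLKO with shGAL with a difference of -0.60 ± 0.17 (adjusted p = 0.0155) and above it with shEGR2_38.9 by 0.45 ± 0.17 (adjusted p = 0.0429). With scan batch as a block these had an adjusted p of 0.073 and 0.117. The first was lost without PLKO control replicate 2 or shGAL control replicate 2 (adjusted p = 0.126 and 0.107 in turn), and the second without PLKO control replicate 1 or 3, shEGR2_40.9 PA-rich replicate 3 or shEGR2_38.9 control replicate 2 or 3 (adjusted p from 0.0502 to 0.231). Stard4 was not called for the control-diet difference of shEGR2_38.9 from PLKO without the dim filter (adjusted p = 0.0559), with array weights (0.47, adjusted p = 0.065) or in a fit of only the arrays compared (adjusted p = 0.144). Stard4 was not called for the control-diet difference of shGAL from PLKO in a fit of only the arrays compared (adjusted p = 0.0908).

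Mylip, a ubiquitin ligase that degrades lipoprotein receptors, was the one uptake gene tested. Mylip on the control diet read 8.03, 8.04 and 8.19 with PLKO, 7.88, 8.18 and 8.05 with shEGR2_40.9, 8.34, 8.57 and 8.09 with shEGR2_38.9, and 7.66, 7.57 and 8.14 with shGAL. Mylip on the PA-rich diet read 7.73, 8.12 and 8.00 with PLKO, 8.05, 7.91 and 8.17 with shEGR2_40.9, 8.02, 8.22 and 8.06 with shEGR2_38.9, and 7.57, 7.45 and 7.57 with shGAL. The shGAL PA-rich arrays were the lowest group and did not overlap with PLKO on that diet, while the diets overlapped with each hairpin. The change from PLKO was -0.42 ± 0.13 (adjusted p = 0.0418), which had an adjusted p of 0.0711 with scan batch as a block and was ended by leaving out PLKO PA-rich replicate 2 or 3, shEGR2_40.9 PA-rich replicate 1, shEGR2_38.9 PA-rich replicate 3 or shGAL PA-rich replicate 1, 2 or 3 (adjusted p from 0.0504 to 0.18). Mylip was not called for the PA-rich difference of shGAL from PLKO without the dim filter (adjusted p = 0.0574).

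**Figure D5:**
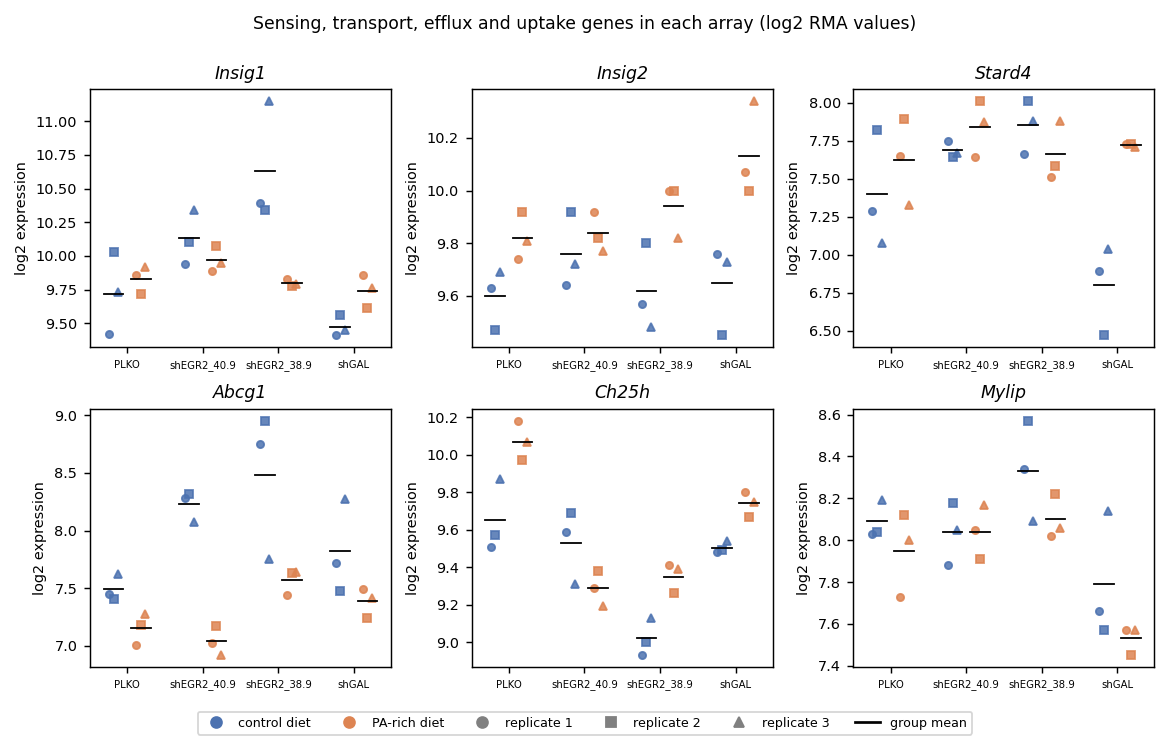
Each point is 1 array's log2 RMA value for genes of sensing, transport, efflux and uptake, by hairpin on the x axis and diet in colour, with a black line for the group mean. Abcg1 control arrays reach 8.95 with shEGR2_38.9, while the shGAL control arrays of Stard4 lie between 6.47 and 7.04.

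Abcg1 exports cholesterol to lipoproteins and is a known LXR target. Abcg1 on the control diet read 7.45, 7.41 and 7.62 with PLKO, 8.28, 8.32 and 8.07 with shEGR2_40.9, 8.75, 8.95 and 7.75 with shEGR2_38.9, and 7.72, 7.48 and 8.27 with shGAL. Abcg1 on the PA-rich diet read 7.01, 7.18 and 7.28 with PLKO, 7.03, 7.17 and 6.92 with shEGR2_40.9, 7.44, 7.63 and 7.64 with shEGR2_38.9, and 7.49, 7.24 and 7.42 with shGAL. Control arrays were high with both EGR2 hairpins, except shEGR2_38.9 replicate 3 at 7.75, and shGAL replicate 3 at 8.27 was high too. Arrays of the diets overlapped with shGAL and did not with the other 3 hairpins. Abcg1 fell with diet with a change of -1.19 ± 0.21 (adjusted p = 0.000475) with shEGR2_40.9, 2.28-fold lower, and -0.91 ± 0.21 (adjusted p = 0.00247) with shEGR2_38.9, which was -1.28 without that array. The diet effect with shEGR2_38.9 differed from that with PLKO by -0.58 ± 0.29 (adjusted p = 0.216), not called, or -0.95 (adjusted p = 0.0035) without that array. On the control diet it was above PLKO by 0.73 ± 0.21 (adjusted p = 0.0217) with shEGR2_40.9 and 0.99 ± 0.21 (adjusted p = 0.000894) with shEGR2_38.9, the latter 1.36 without the array. The first was lost without PLKO control replicate 1 or 2 or shEGR2_40.9 control replicate 1 or 2 (adjusted p from 0.0595 to 0.0716). In the same comparisons all 8 endothelial markers moved the same way, with medians of -1.42 and -1.63 for diet and 1.36 and 1.81 against PLKO, and their part in the Abcg1 result was not tested. Abcg1 was not called for the diet effect with shEGR2_38.9 in a fit of only the arrays compared (adjusted p = 0.0691).

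Ch25h makes an oxysterol that restrains SREBP processing. Ch25h on the control diet read 9.51, 9.57 and 9.87 with PLKO, 9.59, 9.69 and 9.31 with shEGR2_40.9, 8.93, 9.0 and 9.13 with shEGR2_38.9, and 9.48, 9.49 and 9.54 with shGAL. Ch25h on the PA-rich diet read 10.18, 9.97 and 10.07 with PLKO, 9.29, 9.38 and 9.19 with shEGR2_40.9, 9.41, 9.26 and 9.39 with shEGR2_38.9, and 9.80, 9.67 and 9.75 with shGAL. The 3 PLKO PA-rich arrays were the highest of all, and the diets overlapped with shEGR2_40.9 only. Ch25h rose with PLKO by 0.42 ± 0.10 (adjusted p = 0.0304), lost without PLKO control replicate 1 or 2 or PLKO PA-rich replicate 1 or 3 (adjusted p from 0.0917 to 0.179), and with shEGR2_38.9 by 0.33 ± 0.10 (adjusted p = 0.0155), lost without shEGR2_38.9 control replicate 1 or shEGR2_38.9 PA-rich replicate 1 or 3 (adjusted p from 0.0533 to 0.0618). On the PA-rich diet it was below PLKO with a difference of -0.78 ± 0.10 (adjusted p = 3.29e-05), -0.72 ± 0.10 (adjusted p = 0.00118) and -0.33 ± 0.10 (adjusted p = 0.0268) with shEGR2_40.9, shEGR2_38.9 and shGAL, the last lost without PLKO PA-rich replicate 1 or 3 or shGAL PA-rich replicate 2 or 3 (adjusted p from 0.0637 to 0.123). In the scan batch shared with PLKO these differences were -0.89, -0.72 and -0.32. On the control diet it was below PLKO with shEGR2_38.9 with a difference of -0.63 ± 0.10 (adjusted p = 3.49e-05). The diet effect with shEGR2_40.9 differed from that with PLKO by -0.66 ± 0.14 (adjusted p = 0.00689). The effect with shEGR2_38.9 was greater than that with shEGR2_40.9 by 0.57 ± 0.14 (adjusted p = 0.0135). Ch25h was not called for the diet effect with PLKO in a fit of only the arrays compared (adjusted p = 0.142). Ch25h was not called for the diet effect with shEGR2_38.9 in a fit of only the arrays compared (adjusted p = 0.0536).

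Other genes of the pathway were taken from 3 lists. Their calls come from the main fit alone and were not checked in the processing alternatives or without single arrays. Those that use shEGR2_38.9 on the control diet include the array that stood apart. In sterol synthesis and regulation, 11 of 14 genes were tested. With shEGR2_38.9, 2 rose with diet (13.8% of all genes), 4 were below PLKO on the control diet (19.1%) and 3 had a diet effect above that with PLKO (7.84%). With shGAL, the control diet had 2 genes below PLKO (9.84% of all genes) and the PA-rich diet 1 (4.77%). All calls of this list fell in 5 of the 14 comparisons. Mbtps1, the site-1 protease that cleaves SREBP, was below PLKO with shGAL on both diets, with a difference of -0.70 ± 0.13 (adjusted p = 0.000564) and -0.67 ± 0.13 (adjusted p = 0.000963). Mbtps2, the site-2 protease, was below PLKO on the control diet with a difference of -0.64 ± 0.17 (adjusted p = 0.00709) with shEGR2_38.9 and -0.53 ± 0.17 (adjusted p = 0.0371) with shGAL. Erlin1 and Erlin2, which help degrade sterol-regulated proteins, rose with diet by 0.27 ± 0.08 (adjusted p = 0.019) and 0.31 ± 0.09 (adjusted p = 0.0181) with shEGR2_38.9, and were below PLKO on the control diet with a difference of -0.38 ± 0.08 (adjusted p = 0.0011) and -0.24 ± 0.09 (adjusted p = 0.047). Tmem97 was below PLKO there with a difference of -0.46 ± 0.13 (adjusted p = 0.00883).

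In uptake and intracellular transport, 12 of 14 genes were tested. With diet, 1 rose with shEGR2_40.9 (3.73% of all genes), while 2 rose (13.8%) and 1 fell (8.3%) with shEGR2_38.9. Against PLKO on the control diet, 2 were higher (7.19%) and 1 lower (4.94%) with shEGR2_40.9, 2 higher (11.2%) and 3 lower (19.1%) with shEGR2_38.9, and 1 higher (7.15%) with shGAL. With shGAL on the PA-rich diet 1 was lower (4.77%), and the diet effect with shEGR2_38.9 was above that with PLKO for 1 (7.84%) and below it for 1 (5.52%). Lipa, the lysosomal acid lipase that frees cholesterol from its esters, was above PLKO on the control diet by 0.55 ± 0.11 (adjusted p = 0.00146) with shEGR2_40.9 and 0.82 ± 0.11 (adjusted p = 6.86e-06) with shEGR2_38.9. It fell with diet in shEGR2_38.9, with a change of -0.48 ± 0.11 (adjusted p = 0.00268). Nceh1, a cholesteryl ester hydrolase, rose with diet by 0.45 ± 0.12 (adjusted p = 0.0227) and 0.50 ± 0.12 (adjusted p = 0.00451) with the EGR2 hairpins and was below PLKO with shGAL on the PA-rich diet with a difference of -0.48 ± 0.12 (adjusted p = 0.0111). Lrp1, an endocytic receptor, rose by 0.31 ± 0.10 (adjusted p = 0.0227) with shEGR2_38.9.

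In LXR, efflux and oxysterols, 11 of 15 genes were tested. With diet, 1 rose (3.73% of all genes) and 1 fell (5.22%) with shEGR2_40.9, 4 rose (13.8%) and 1 fell (8.3%) with shEGR2_38.9, and 1 rose (1.33%) with shGAL. Against PLKO on the control diet, 1 was higher (7.19%) and 1 lower (4.94%) with shEGR2_40.9, 2 higher (11.2%) and 4 lower (19.1%) with shEGR2_38.9, and 2 lower (9.84%) with shGAL. With shGAL on the PA-rich diet 2 were higher (7.6%) and 1 lower (4.77%). The diet effect with shEGR2_40.9 was below that with PLKO for 1 (2.36%), and that with shEGR2_38.9 was above it for 3 (7.84%) and below it for 1 (5.52%). Between the EGR2 hairpins 1 differed (3.77%). Hsd3b7, which acts on oxysterols in bile acid synthesis, had the lowest and the highest change of the list with shEGR2_38.9. It fell with diet, with a change of -0.97 ± 0.13 (adjusted p = 1.91e-05) with shEGR2_40.9 and -1.49 ± 0.13 (adjusted p = 1.86e-08) with shEGR2_38.9, and was above PLKO on the control diet by 0.68 ± 0.13 (adjusted p = 0.000681) and 1.39 ± 0.13 (adjusted p = 2.63e-08). Cyp7b1, an oxysterol hydroxylase, rose with diet by 0.87 ± 0.16 (adjusted p = 0.000959), 0.84 ± 0.16 (adjusted p = 0.000521) and 0.63 ± 0.16 (adjusted p = 0.0438) with shEGR2_40.9, shEGR2_38.9 and shGAL. Sult2b1, a sterol sulfotransferase, rose by 0.85 ± 0.11 (adjusted p = 8.81e-06) with shEGR2_38.9 and differed from the effect with shEGR2_40.9 by 0.94 ± 0.16 (adjusted p = 0.00105). Its control-diet mean with shEGR2_38.9 was 7.56, against 8.45 with PLKO, in the group that holds the array that stood apart. Rxra, the partner of LXR, was below PLKO with a difference of -0.42 ± 0.11 (adjusted p = 0.0048) with shEGR2_38.9 and -0.39 ± 0.11 (adjusted p = 0.015) with shGAL on the control diet. On the PA-rich diet the Rxra mean with shGAL was also lower, 9.99 against 10.42 with PLKO. Abca7, a lipid transporter, was below PLKO on that diet with a difference of -0.35 ± 0.08 (adjusted p = 0.00401) with shEGR2_40.9 and -0.34 ± 0.08 (adjusted p = 0.00215) with shEGR2_38.9. Lpcat3, a phospholipid enzyme, was below PLKO on the control diet with a difference of -0.32 ± 0.11 (adjusted p = 0.0363) with shEGR2_38.9. Its PA-rich means were 8.58 with shEGR2_38.9 and 8.42 with PLKO.

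For 10 genes, other probe sets above the dim limit could be compared with the one used. Over 62 pairs of probe set and called comparison, 51 had the same sign and 11 did not. Those 11 belonged to Cyp51, Msmo1, Hsd17b7 and Sc5d, and 1 of them, for Sc5d, was 0.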

How the data were processed

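RNA isolated on magnetic beads was amplified and biotin-labelled for mouse arrays, per the labels. RMA values on a log2 scale were deposited, computed by the authors in affy (version not given in the sources used here), as the submitters' processing notes say. The values ran from 3.91 to 13.6, with array medians of 6.71 to 6.81. Of 45141 probe sets, 28898 named 1 gene. The dim limit was the 40th percentile of probe set means (6.27), and genes under it were left out, except where no filter is stated. One model of 8 group means over 24 arrays was fitted with limma 3.58.1 in R 4.3.3 (16 residual and 6.21 prior degrees of freedom), without correction for scan batch. Tests were two-sided and adjusted by Benjamini and Hochberg over 11844 genes in each of 14 comparisons. Replicate numbers and scan batches, of which there were 6, went one to one within a hairpin and held both diets. Residuals of same-numbered arrays of the diets correlated from -0.03 to 0.24, over 0.1 in 7 of 12 pairs, so the block is an alternative. On simulated data of 11844 genes for the PLKO diet comparison, limma called 87 of 100 genes changed by 0.5 and 100 of 100 changed by 1. Of the 198 calls, 11 were false. The simulated noise was independent between arrays, without scan batch or an outlying array, so these shares may not hold for the real arrays. The members, lists and tests were chosen with earlier results of these data known. Every member with a call was named with its values, and other pathway genes where they were called in at least 2 comparisons. Whether mouse probe sets also bind human tumour RNA was not tested. Processing alternatives comprised no dim filter, scan batch as a block, renewed quantile normalization, the mean of probe sets, eBayes with trend and robust, array weights, only the arrays compared, and leaving out each array.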

Additional observations from a re-analysis of the deposited data

Results flagged for a closer look

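The diet effect differed between hairpins, by limma's test of the difference with adjustment over all genes, for the following genes. All comparisons with PLKO share its 6 arrays. Against PLKO, the effect with shEGR2_40.9 was greater by 0.88 for Idi1, 0.96 for Fdps, 0.65 for Lss, 0.60 for Cyp51, 0.55 for Tm7sf2 and 1.04 for Nsdhl, and for Ch25h the difference was -0.66. The effect with shEGR2_38.9 was greater than with PLKO by 0.41 for Mvd, 0.88 for Idi1, 0.86 for Fdps, 0.58 for Fdft1, 0.64 for Sqle, 0.76 for Lss, 0.62 for Cyp51, 0.52 for Tm7sf2, 0.68 for Nsdhl, 0.69 for Hsd17b7, 0.66 for Sc5d and 0.87 for Dhcr7, and for Insig1 the difference was -0.94. The effect with shGAL was greater than with PLKO by 1.17 for Idi1, 0.86 for Fdps, 0.76 for Cyp51 and 0.63 for Nsdhl. Between the EGR2 hairpins, the effect with shEGR2_38.9 was greater by 0.50 for Mvd, 0.59 for Sqle, 0.51 for Sc5d and 0.57 for Ch25h. Not all of these calls held in every processing alternative. Against PLKO, 6 of 7 held for shEGR2_40.9, 9 of 13 for shEGR2_38.9 and 2 of 4 for shGAL. Between the EGR2 hairpins 2 of 4 held. The losses are given with each gene above.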

How the results depend on the processing

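Of 114 called pairs of gene and comparison, 74 were kept in all 7 alternatives that keep every array compared, 60 were also kept on leaving out each of the 24 arrays in turn, and 0 changed sign. Calls lost were 8 with the scan batch as a replicate block, 10 without the dim filter, 9 with renewed quantile normalization, 13 with the mean of probe sets, 4 with trend and robust, 8 with array weights and 29 with only the arrays compared, a fit with fewer samples. The block changed no count of members called by over 1.5 times. Counts of members called that moved were, with only the arrays compared, 0 for the diet effect with PLKO (2), 10 with shEGR2_38.9 (17), 5 for shGAL minus PLKO on the control diet (9), 9 for shEGR2_40.9 minus PLKO on the PA-rich diet (5) and 11 for the difference in diet effect of shEGR2_40.9 from PLKO (7), with the reported counts in brackets. With array weights the last 2 were 10 and 11, and the difference of shGAL from PLKO was 10 (4). With the mean of probe sets, shEGR2_38.9 minus PLKO on the PA-rich diet was 2 (1) and the difference between the EGR2 hairpins 2 (4). The cause was not tested. On leaving out 1 array, counts ran from 0 to 4, 5 to 11, 14 to 18 and 5 to 9 for the diet effect with PLKO, shEGR2_40.9, shEGR2_38.9 and shGAL. For shEGR2_40.9, shEGR2_38.9 and shGAL minus PLKO they ran from 3 to 8, 14 to 19 and 5 to 10 on the control diet and from 4 to 9, 1 to 1 and 6 to 12 on the PA-rich diet. For the differences in diet effect from PLKO they ran from 6 to 11, 10 to 13 and 3 to 7, and between the EGR2 hairpins from 2 to 5. With 3 arrays per group, precision is limited by their number.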
